A study of Mus musculus with 4 samples.

Results

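Arterial and descending vasa recta endothelium is the endothelial class of the mouse kidney that lines the arteries, the arterioles and the vessels that carry blood down into the medulla. Its nuclei were chosen by the unique transcript counts (UMIs) of 13 genes. A nucleus was a member when at least 3 of the 8 endothelial genes Pecam1, Flt1, Emcn, Ptprb, Kdr, Cdh5, Adgrl4 and Plvap had a UMI and Sox17, Gja4, Gja5, Slc14a1 and Fbln5 together had at least 2. The rule found 138 nuclei among 1665 endothelial nuclei and 27343 nuclei in all. The 1527 remaining endothelial nuclei served as the comparison.

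Arterial endothelium receives blood at high pressure, signals to the smooth muscle around it and rests on an elastic matrix, and Notch ligands and SOX17 set its identity. The descending vasa recta leave the efferent arterioles of the deep glomeruli and enter the medulla, where salt and urea rise toward the papilla. Their endothelium carries the urea transporter UT-B, encoded by Slc14a1, and the water channel aquaporin-1, which take part in countercurrent exchange, whereas the ascending vasa recta and the peritubular capillaries are fenestrated.

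Single-nucleus RNA sequencing was carried out on kidneys of 12-week-old male mice, with 2 mice in each group. All 4 mice carried floxed Tfap2a alleles (Tfap2a fl/fl). Control mice were Cre-negative, and knockout mice (KO) carried Hoxb7Cre, a transgene that drives recombination in the collecting duct system and lower urinary tract epithelium. The tissue came from the centre of the kidney and was cleared of cortex, so medullary cells are over-represented. The study asked which genes depend on the transcription factor Tfap2a in the collecting ducts.

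After filtering, 7738 and 5430 control nuclei and 7998 and 6177 KO nuclei remained. Control 1, control 2, KO 1 and KO 2 gave 44, 45, 29 and 20 members, whose UMIs summed to 110465, 99902, 61515 and 49499. The median member held 1861.5 UMIs, against 1488 in the other endothelial nuclei, and shares are therefore also given for nuclei thinned to 1 depth. Median mitochondrial content was 1.20% in members and 1.53% in other endothelial nuclei. Between pairs of libraries, 75 barcode matches were found over all nuclei and none of them was between members. Doublets were not called. Instead, nuclei in which 31 epithelial genes held at least 1% of the UMIs were counted, and these were 10 of the 138 members and 130 of the 1527 others.

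The genes of the rule are described without a test, since they chose the members. Among the 1665 endothelial nuclei, 1368 had no UMI of the 5 arterial and descending vasa recta genes and 159 had 1, just below the threshold. Just inside it, 45 nuclei had 2 UMIs, 21 had 3 and 72 had 4 or more, up to 38. On the endothelial side, 16 members had exactly 3 of the 8 genes, and 18 nuclei with 2 of the 8 genes and enough marker UMIs were left out.

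Sox17, a transcription factor of arterial endothelium (mm10 chromosome 1, 4490928 to 4497426), was found in 84 of the 138 members. Slc14a1 (chromosome 18, 78100091 to 78142119) was found in 73 and Fbln5, an elastic fibre protein (chromosome 12, 101746565 to 101819119), in 57. The connexin genes Gja5 (chromosome 3, 97032402 to 97053634) and Gja4 (chromosome 4, 127311420 to 127314039) were found in 27 and 24. Only 1 of the 5 genes was present in 58 members, 2 were present in 45, 3 in 27, 4 in 4 and all 5 in 4. Members therefore varied in which gene had brought them in, and 14 were included through Slc14a1 alone.

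Levels are given as counts per 1000000 UMIs of the nuclei summed in a mouse (CPM), in the order control 1, control 2, KO 1 and KO 2. Sox17 reached 425, 791, 797 and 465 CPM in members and Slc14a1 reached 806, 1241, 423 and 586. Plvap, which encodes the diaphragm protein of fenestrated capillaries, was at 398, 270, 601 and 424 CPM in members and at 1383, 1683, 1308 and 1706 in other endothelial nuclei. Pecam1, a pan-endothelial adhesion molecule, lay at 706, 861, 683 and 525 CPM in members and at 741, 1019, 555 and 789 in the others. Few nuclei elsewhere had a Slc14a1 UMI, 10 of 1527 other endothelial nuclei (0.655%) and 141 of 25678 non-endothelial nuclei (0.549%). The median non-endothelial nucleus was deeper, at 2577 to 2855 UMIs. The rule itself held the first of these shares down. In total, the far more numerous non-endothelial nuclei held 83, 105, 42 and 56 Slc14a1 UMIs, and members held 89, 124, 26 and 29.

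Members were then compared with the other endothelial nuclei over the genes that the rule did not use. In all 4 mice members had more Aqp1, Lef1, Scin, Cldn5 and Hpgd, more of the Notch ligand Jag1 and of the elastic matrix genes Eln and Fbn1, and less of the capillary genes Rgcc, Igfbp5, Tek and Tll1. The test was edgeR's quasi-likelihood test on UMIs summed per mouse, with the mouse as a term and Benjamini-Hochberg adjustment over 13095 genes. It called 245 genes higher in members (1.87% of those tested) and 297 lower (2.27%), and 183 and 256 of these had the same direction in all 4 mice. These genes were measured in the same nuclei that were sorted by the rule.

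Aqp1 (chromosome 6, 55336299 to 55348555), the water channel of descending vasa recta, stood at 3015, 2813, 2601 and 2384 CPM in members and at 184, 110, 104 and 115 in other endothelial nuclei. The ranges were far apart, and the log2 difference was 4.25 ± 0.19 (SE, adjusted p = 8.0e-107 with edgeR). Where parts were compared, such p-values and SEs rest on variance shared over genes. They do not measure the spread of a single gene among the 4 mice. Lef1 (chromosome 3, 131110297 to 131224357), a transcription factor that acts with β-catenin, was at 362, 891, 309 and 263 CPM against 11.3, 34.2, 19.5 and 4.28. Its log2 difference was 4.53 ± 0.27 (adjusted p = 3.26e-57), and control 2 held the highest level in both parts. Scin, an actin-severing protein, was higher by 4.17 ± 0.26 on the log2 scale, and Cldn5 (chromosome 16, 18776847 to 18778262), a tight junction claudin of continuous endothelium, by 4.67 ± 0.29. Cldn5 was at 290, 430, 553 and 323 CPM in members and did not exceed 18.6 in the others. Hpgd, which breaks down prostaglandins, was higher by 4.74 ± 0.37, at 199, 360, 163 and 242 CPM against at most 14.4.

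**Figure D1:**
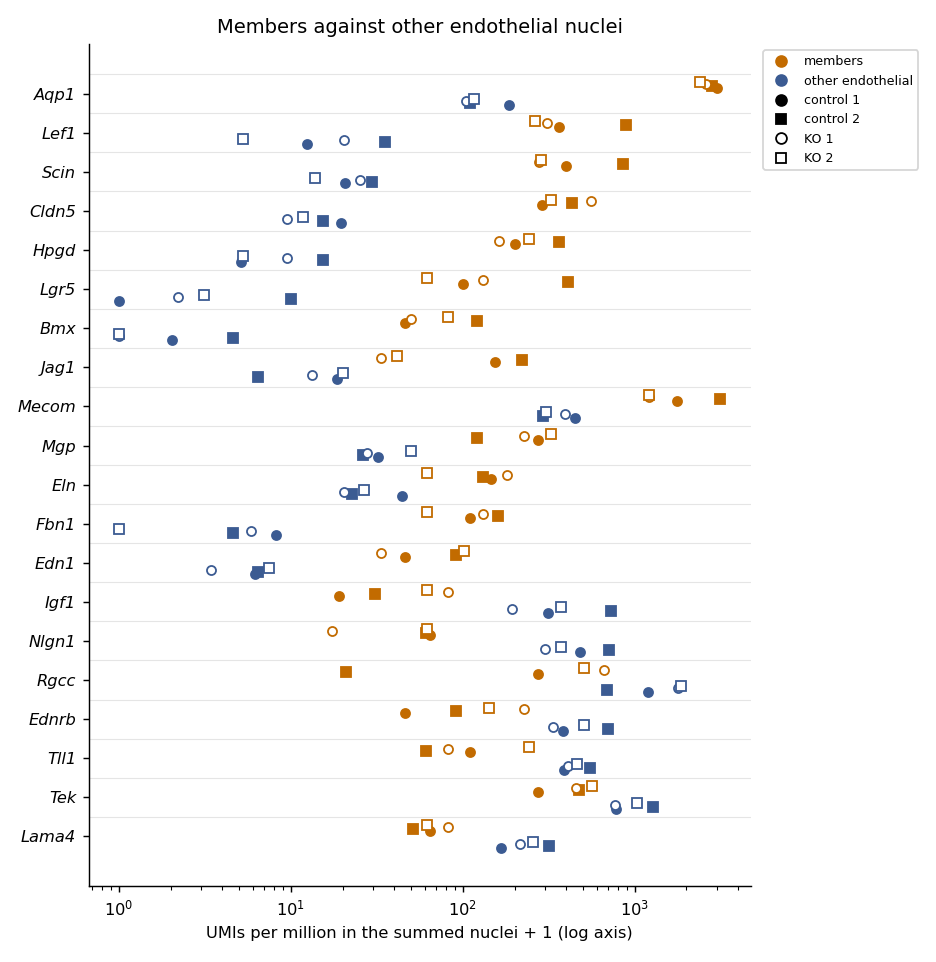
Levels of 20 named genes in members (orange) and other endothelial nuclei (blue), in CPM plus 1 on a log axis, 1 point per mouse (filled for control, open for KO, circles for mouse 1 and squares for mouse 2). For Aqp1 the orange points lie between 2384 and 3015 and the blue ones between 104 and 184, and for Igf1 the order is turned round.

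The largest increases were in scarcer genes. Lgr5, an R-spondin receptor, had 11, 41, 8 and 3 UMIs in members and 7 in all other endothelial nuclei, a ratio of 78.8 in CPM with a counting interval of 36.1 to 204 and a log2 difference of 5.74 ± 0.51. Csf2rb2, a cytokine receptor subunit, had 27 UMIs in members against 3 (ratio 78.8, 24.2 to 406), and Bmx, a tyrosine kinase of arterial endothelium, had 24 against 3 (ratio 70.0, 21.3 to 363). Olfm2 had 29 against 1 (ratio 254, 42.1 to 10368). Igdcc3 had 14 UMIs in members and none in the others, which makes it at least 40.8-fold higher against a limit of 3 UMIs over the 4 mice. Col12a1, Tmc7, Gm5127, Fam181b and Gm33206 complete the genes with the largest changes. Their levels rest on few UMIs, and 9 to 41 of the 138 members held a UMI of each of the 12 genes with the largest increase, which include Cldn5 and Hpgd.

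Of the arterial identity genes, 32 of 34 could be tested, 16 were higher and 1 was lower, with a median log2 difference of 1.08 against -0.20 over all genes tested. The Notch ligand Jag1 (chromosome 2, 137081451 to 137116520) was at 154, 220, 32.5 and 40.4 CPM in members and 17.5, 5.40, 12.2 and 19.2 in the others (log2 difference 2.94 ± 0.42, adjusted p = 9.65e-10). The margin over the other nuclei was wide in both control mice and narrow in both KO mice. These levels rest on few counts, with 2 Jag1 UMIs in members of each KO mouse and 3 in the other endothelial nuclei of control 2. Cxcl12, a chemokine of arterial endothelium, was higher by 3.16 ± 0.41, Vegfc by 2.46 ± 0.31, Jag2 by 2.62 ± 0.44 and the matrix calcification inhibitor Mgp by 2.68 ± 0.30. Mecom, a zinc-finger transcription factor, was at 1756, 3153, 1203 and 1212 CPM against 451, 293, 393 and 306 and was higher by 2.10 ± 0.18. The exception was the VEGF co-receptor Nrp1, which was lower by 0.75 on the log2 scale (-0.75 ± 0.18, adjusted p = 0.00116).

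In the list of elastic fibre and basement membrane genes, 4 of 24 tested were higher and 1 was lower, with a median of 0.01. Fbn1, the microfibril protein fibrillin-1, was at 109, 160, 130 and 60.6 CPM against at most 7.22, a log2 difference of 4.47 ± 0.53. Fbln2 (4.59 ± 0.68), Eln (2.07 ± 0.36) and the basement membrane collagen Col18a1 (2.29 ± 0.34) were the others that rose. Lama4, a laminin chain of capillary basement membrane, was at 63.4, 50, 81.3 and 60.6 CPM against 165, 317, 213 and 257 and was lower (-2.03 ± 0.31).

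Of the capillary and venous genes, 16 of 18 were tested, 8 were lower and 1 higher, and the median log2 difference was -1.20. Rgcc (chromosome 14, 79288750 to 79301635), a cell cycle regulator enriched in capillary endothelium, was at 272, 20, 667 and 505 CPM in members and 1194, 693, 1787 and 1869 in the others (-2.32 ± 0.20, adjusted p = 2.15e-27). Control 2 had the lowest value in both parts. Tll1 (-2.16 ± 0.25), Tek, the angiopoietin receptor (-1.32 ± 0.19), Nrp2 (-1.52 ± 0.26), Cd36, a fatty acid transporter (-1.39 ± 0.27), Igfbp5 (-1.29 ± 0.18) and Gpihbp1, which anchors lipoprotein lipase (-1.10 ± 0.27), were lower as well. Igfbp7 went the other way (0.68 ± 0.17).

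Outside the lists, Igf1 (chromosome 10, 87858265 to 87937047) was at 18.1, 30.0, 81.3 and 60.6 CPM in members against 314, 731, 193 and 372 (-3.42 ± 0.33, adjusted p = 8.07e-23). Nlgn1, a synaptic adhesion molecule, was at 63.4, 60.1, 16.3 and 60.6 against 480, 704, 300 and 374 (-3.35 ± 0.30). Members held less of both in every mouse. Egfem1, Lbp, Gm15336, Hspb8, Depdc7 and Rnaseh2b had no UMI in any member and 56 to 154 in the others, so they were at least 2.13-fold to at least 5.86-fold lower in members (limit of 3 UMIs over the 4 mice). Trp53i11 and Enho each had 1 UMI in members, with ratios of 0.0561 (0.00141 to 0.317) and 0.0850 (0.00213 to 0.484), and AI838599 had 2 (0.105, 0.0126 to 0.385).

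Signalling lists gave mixed counts. Of the vasoactive genes, 3 of 17 tested were higher and 2 lower (median 0.07). Edn1, which encodes the vasoconstrictor endothelin-1, was at 45.3, 90.1, 32.5 and 101 CPM in members against at most 6.42 (3.47 ± 0.66), while its receptor gene Ednrb was at 45.3, 90.1, 228 and 141 against 383, 696, 335 and 509 (-2.22 ± 0.26). Ligand and receptor thus changed in opposite directions. Gucy1a1, a subunit of the nitric oxide receptor, was higher by 3.47 ± 0.70 and Gucy1b1, its partner with 7 UMIs in members, by 3.49 ± 1.09. Gucy1a1 had 16, 2, 2 and 1 UMIs in 13 members, and 2 nuclei of control 1 held 10 of them. Of the TGF-β and BMP genes, 2 of 17 were higher, Tgfb2 (3.14 ± 0.65) and Bmp6 (1.61 ± 0.30), and 2 were lower, the co-receptor Eng (-0.82 ± 0.19) and Id3 (-0.67 ± 0.19). In the Notch list 2 of 21 were higher, both ligands, and 1 was lower, the inhibitor Numb (-0.76 ± 0.21). In the tonicity and water list 4 of 10 were higher and none lower (median 0.39): Aqp1, Scin, the taurine transporter Slc6a6 (0.79 ± 0.20) and aldose reductase Akr1b3 (0.58 ± 0.18). Junction genes gave 1 of 11 higher and 2 lower, Wnt pathway genes 1 of 11 in each direction, and VEGF and angiopoietin genes 2 of 9 higher and 4 lower.

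Markers of other cell types moved with some of these genes. The 12 smooth muscle and pericyte genes summed to 81.3 to 150 CPM in members and 28.9 to 79.1 in the others, with 3 of the 12 at 0 in every member. The 6 fibroblast genes summed to 32.5 to 172 against 10.3 to 19.2, with 1 of 6 at 0. Pdgfrb (17 UMIs in 9 members), Pdgfra (15 in 9) and Col1a2 (13 in 9) were called higher, but Pdgfra turned to -3.65 when nuclei were thinned to 1000 UMIs. The 9 proximal tubule genes went the other way in 3 of 4 mice, at 841 to 3737 CPM in members and 2406 to 3629 in the others. The part of these transcripts in the differences above was not tested. Without TMM scaling the median log2 difference over all genes moved from -0.20 to -0.05, a shift of 0.15, and 285 genes were called higher and 177 lower, so the split between directions depends on the scaling. Leaving out control 1 gave 140 higher and 173 lower, leaving out control 2 gave 176 lower, and thinning every nucleus to 1000 UMIs gave 76 higher and 338 lower.

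Members were next divided by whether they held a UMI of Slc14a1, the gene of descending vasa recta. There were 73 Slc14a1-positive and 65 Slc14a1-negative members. Positive members had more Aqp1, Akr1b3, Cryab, Scin and Lef1. Negative members had more of the elastic matrix and large-vessel genes Fbln2, Eln, Ltbp4, Mgp and Bgn and also more of the capillary genes Rgcc, Igfbp5 and Esm1. The same test over 6722 genes called 80 higher in positive members (1.19%) and 124 lower (1.84%), with 69 and 95 of them in the same direction in all 4 mice. A negative nucleus is one in which Slc14a1 was not detected. Such a nucleus became a member only through at least 2 UMIs of Sox17, Gja4, Gja5 and Fbln5, whereas a positive one could enter through Slc14a1 alone, so the rule itself leans negative members toward arterial and elastic fibre genes. The medians were 1923 UMIs per positive and 1815 per negative nucleus.

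Tonicity and water genes gave 5 of 9 higher in positive members and none lower, with a median of 1.83 against -0.10 over all genes tested. Aqp1 stood at 5263, 3808, 8500 and 6425 CPM in positive members and at 617, 182, 161 and 688 in negative members (3.82 ± 0.39, adjusted p = 8.02e-19 with edgeR). Akr1b3, which makes the osmolyte sorbitol, was at 2597, 1049, 1611 and 3486 against 673, 109, 253 and 28.7 (3.01 ± 0.40). No negative level reached the lowest positive level for either gene. Cryab, a small heat-shock protein, was higher by 2.62 ± 0.37 and Nfat5, the tonicity-responsive transcription factor, by 1.22 ± 0.35 (adjusted p = 0.0242). Scin was higher by 2.76 ± 0.46. Akr1b3 and Cryab rested on few nuclei in some mice. In KO 1 the leading 2 members held 163 of 171 Cryab UMIs and 39 of 40 Akr1b3 UMIs. In KO 2 they held 41 of 52 Akr1b3 UMIs. Cryab and Akr1b3 were also at 1280 and 451 CPM in non-endothelial nuclei, and the part of tubule transcripts in them was not tested.

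Lef1 stood at 667, 1159, 778 and 820 CPM in positive and 37.4, 182, 115 and 28.7 in negative members (3.24 ± 0.48, adjusted p = 1.29e-08). Lgr5 had 61 of its 63 UMIs in positive members (4.2 ± 0.75) and Olfm2 had 28 of 29 (4.56 ± 0.94). Gm5127, Gm32250 and Rgs7bp had 19, 15 and 18 UMIs in positive members and none in negative ones, which makes them at least 6.22-, 4.91- and 5.90-fold higher (limit of 3 UMIs over the 4 mice). Cdkn2b, a cell cycle inhibitor, had 21 against 1 (ratio 20.6, 3.32 to 853) and Asxl3 20 against 1 (ratio 19.6, 3.14 to 814). Mecom (1.59 ± 0.35) and Cldn5 (1.59 ± 0.43) were higher in positive members too.

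Of the arterial identity genes, 9 of 28 tested were lower in positive members and 2 were higher (median -0.57). Fbln2 had no UMI in positive members and 5, 17, 5 and 1 in negative members, at least 9.50-fold lower, and all 28 UMIs came from 9 nuclei, of which the leading 2 per mouse held 25. Stmn2 had 22 UMIs in 6 negative nuclei and none in positive ones (at least 7.46-fold lower). Mgp stood at 228, 0, 0 and 0 CPM in positive members and at 318, 438, 322 and 459 in negative ones (-2.49 ± 0.55). Bgn, a small proteoglycan (-4.12 ± 0.80), Ltbp4, which binds latent TGF-β (-2.95 ± 0.67), Eln (-2.28 ± 0.63), Cxcl12 (-2.14 ± 0.61) and Nrp1 (-2.26 ± 0.40) were lower in positive members as well. Mecom and S100a6 (1.26 ± 0.36) were the 2 that were higher. The other 17 were not called, and 13 of the 28 had a fitted value above 0, among them Bmx (18 UMIs in positive against 6 in negative members), Jag2 (24 against 11) and Jag1 (27 against 16). In the elastic fibre and basement membrane list, 3 of 18 tested were lower in positive members and 1 was higher (median -0.44). Fbn1 was not called, with 23 UMIs in positive and 16 in negative members (0.41 ± 0.60).

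**Figure D2:**
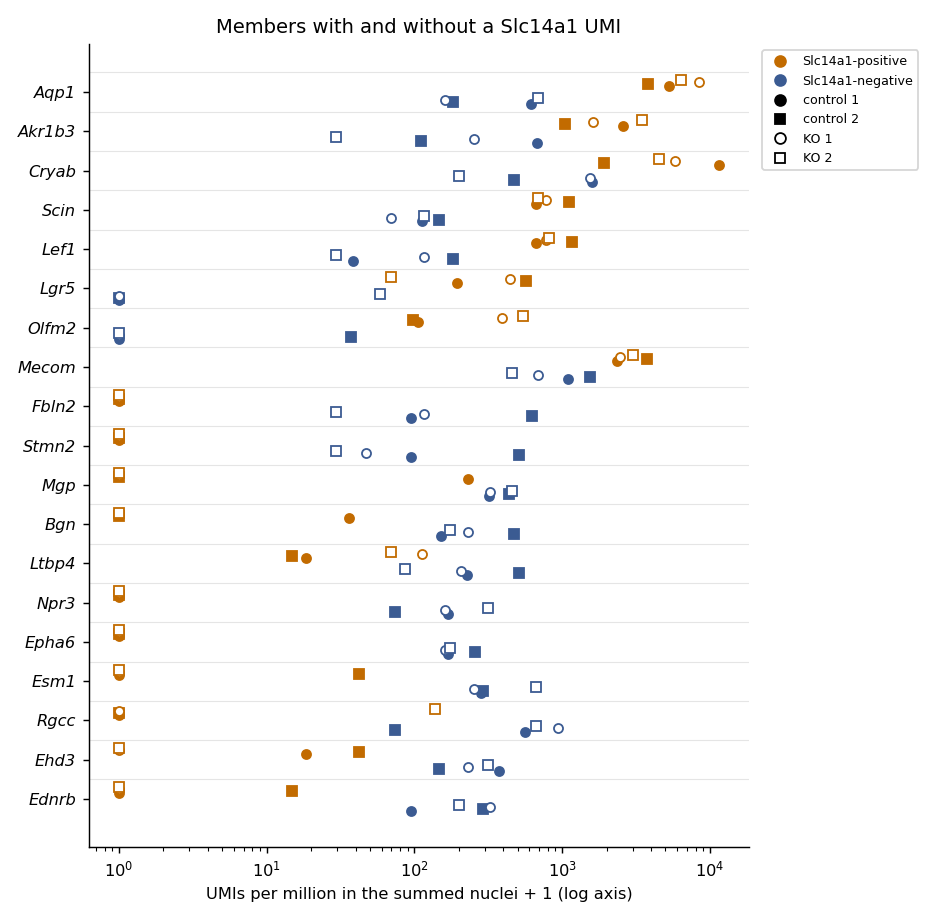
Levels of 19 named genes in members with a Slc14a1 UMI (orange) and without one (blue), in CPM plus 1 on a log axis, 1 point per mouse (filled for control, open for KO, circles for mouse 1 and squares for mouse 2). Points at 1 mark levels of 0. Fbln2, Stmn2, Npr3 and Epha6 are at 0 in positive members of all 4 mice.

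Capillary and venous genes gave 5 of 13 lower and none higher (median -1.83). Rgcc had 2 UMIs in positive members and 96 in negative ones (ratio 0.0205, 0.00244 to 0.0760). Igfbp5 was at 193, 110, 55.6 and 137 CPM in positive and 692, 1349, 1425 and 1606 in negative members (-3.13 ± 0.43, adjusted p = 1.24e-09). Esm1, which encodes endocan, had 3 UMIs against 57 (ratio 0.0517, 0.0104 to 0.159). Ednrb had 1 UMI against 34 (ratio 0.0289, 0.000711 to 0.172). Epha6, Btnl9, Npr3, the natriuretic peptide clearance receptor, Nlgn1, Ptpru and Nav3 had none in positive members and 16 to 29 UMIs in negative ones, at least 5.43-fold to at least 9.84-fold lower. Of the glomerular endothelium genes, 1 of 5 tested was lower, Ehd3 (4 UMIs against 45, -3.31 ± 0.69), and none was higher, but the median was 1.05 and 3 of 5 lay above 0. Nostrin had 27 UMIs in positive and 6 in negative members (2.02 ± 0.72, adjusted p = 0.117 with edgeR) and Plat, tissue plasminogen activator, 82 and 31 (1.20 ± 0.46, adjusted p = 0.177).

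Tubule genes also differed in this comparison. The 9 proximal tubule genes summed to 68.3 to 1193 CPM in positive and 1349 to 5277 in negative members, and 5 of 9 were called lower in positive members, as were 3 of 3 tested thick ascending limb genes. Without nuclei rich in epithelial genes, 2 of these 8 genes were still called, Cubn (-2.94) and Acsm2 (-1.37). The other 6 kept a negative fitted value, from -1.66 for Lrp2 to -0.95 for Umod, with Slc34a1 at -1.45 (adjusted p = 0.0527 with edgeR). In that setting 73 genes in all were higher and 98 lower. Over all members, 1 of 2 tested distal and collecting duct genes went the other way and was called higher in positive members. This was Aqp2, with 38 UMIs in positive and 6 in negative members (2.93 ± 0.67, adjusted p = 0.00145 with edgeR). KO 1 held 22 of the 38. Fibroblast genes summed to 0 to 52.6 CPM in positive and 46.0 to 511 in negative members, and smooth muscle and pericyte genes to 0 to 70.2 and 115 to 365. Their part in the matrix gene differences was not tested. Leaving out control 1 reduced the calls to 28 higher and 57 lower, leaving out KO 1 gave 47 and 59, and leaving out KO 2 gave 64 lower.

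**Figure D3:**
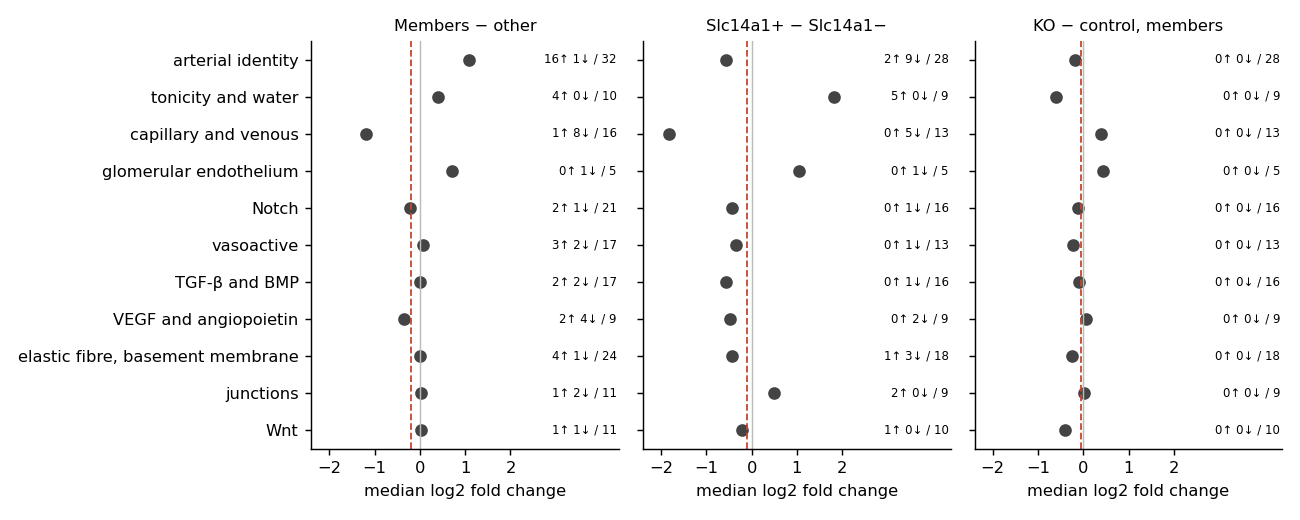
Median log2 fold change of 11 gene lists (points) in 3 comparisons: members minus other endothelial nuclei, Slc14a1-positive minus Slc14a1-negative members, and KO minus control in members. The dashed line is the median of all genes tested, and the text at the right gives genes called higher, called lower and tested. Arterial identity lies at 1.08 in the first comparison and at -0.57 in the second.

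The study's own question is the effect of the knockout, and the targeted gene comes first. Tfap2a (chromosome 13, 40713802 to 40738238) had 0, 0, 1 and 0 UMIs in members and 12.4, 21.6, 11.4 and 12.1 CPM in non-endothelial nuclei. The library primes at the 3' end of transcripts whereas the deleted exons are internal, so UMIs from the deleted allele can still be counted and the level is no check of the knockout. Wnt9b had 0, 0, 1 and 0 UMIs in members, Tfap2b had 2, 4, 0 and 0, and Alcam, a cell adhesion molecule, had 7, 6, 3 and 1 (log2 difference -0.82 ± 0.83, adjusted p = 0.992). At these counts no difference was detectable in members.

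Members made up 8.04% of endothelial nuclei in control 1, 12.1% in control 2, 6.24% in KO 1 and 7.12% in KO 2. The exact (Clopper-Pearson) 95% intervals, which cover counting error only, were 5.91 to 10.6, 8.96 to 15.8, 4.22 to 8.83 and 4.4 to 10.8. The groups did not overlap, but control 1 lay closer to the KO mice than to control 2. The KO mean minus the control mean was -3.39 percentage points (exact permutation p = 0.33, two-sided), and 0.33 is the smallest p that 2 mice against 2 allow. Of all nuclei, members were 0.569%, 0.829%, 0.363% and 0.324%. With nuclei thinned to 1000 UMIs the shares of endothelial nuclei were 5.07%, 9.18%, 4.17% and 4.60%, a difference of -2.74 points. Under a rule without Slc14a1 the shares were 5.85%, 8.06%, 5.81% and 5.69%, a difference of -1.21 points. The difference was -1.37 points without control 2 and -5.42 points without control 1, and -9.64 points among nuclei with under 1% mitochondrial UMIs.

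Among members, 24 of 44 and 34 of 45 were Slc14a1-positive in the control mice (54.5%, interval 38.8 to 69.6, and 75.6%, 60.5 to 87.1). In the KO mice 8 of 29 (27.6%, 12.7 to 47.2) and 7 of 20 (35.0%, 15.4 to 59.2) were. Both KO mice lay below both control mice, and the difference of the means was -33.8 percentage points. This is a description with no test, since Slc14a1 is a gene of the rule. Control 1 members were deepest, at a median of 2298.5 UMIs against 1537 to 1748. The expected share after thinning each nucleus to 1000 UMIs was therefore also calculated, with members still chosen at full depth. It was 46.3%, 60.7%, 25.0% and 24.2%, and 6 members with fewer UMIs were left out of it. Slc14a1 over all endothelial nuclei, a set that its own level did not choose, was at 86.1, 195, 29.5 and 59.9 CPM. The log2 difference was -1.67 ± 0.42 and did not pass the adjusted threshold over 13108 genes (adjusted p = 0.560 with edgeR, a comparison added after the data had been seen). In non-endothelial nuclei Slc14a1 was at 4.00, 6.78, 2.02 and 3.08 CPM, so the lower KO level was not particular to endothelium.

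**Figure D4:**
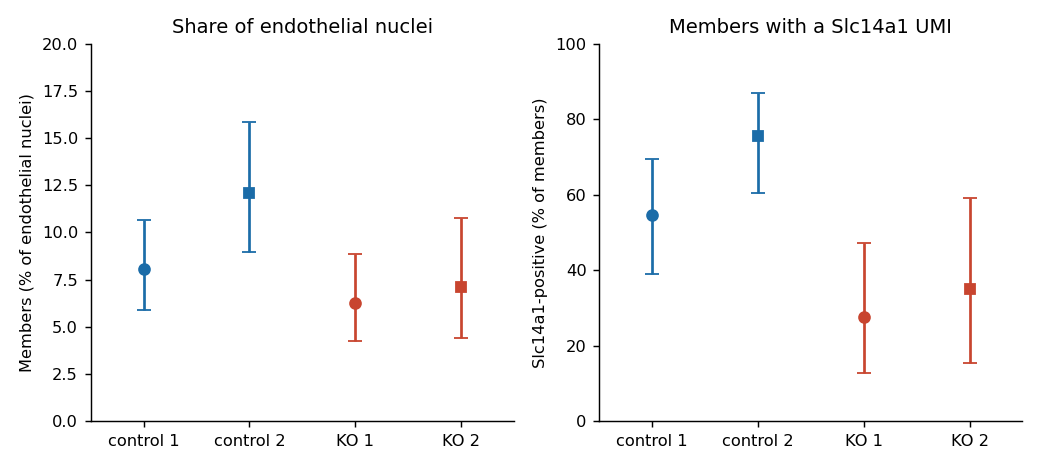
Left, members as a percentage of endothelial nuclei, and right, Slc14a1-positive members as a percentage of members, in each mouse (blue control, red KO), with exact 95% binomial intervals for counting error. The KO mice lie at 6.24% and 7.12% on the left and at 27.6% and 35.0% on the right, below both control mice in each panel.

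The tissue in the 4 slices also differed. In non-endothelial nuclei the 4 thin limb genes summed to 109 and 138 CPM in control and 66.5 and 96.4 CPM in KO mice. The 9 proximal tubule genes, which mark cortex and outer medulla, summed to 8731 and 5952 in the control and 9399 and 8544 in the KO mice, and the 5 urothelial genes to 111, 256, 59.3 and 116. Thick ascending limb genes summed to 5790, 8245, 5074 and 6468, and distal and collecting duct genes to 1459, 1878, 1618 and 1387. Among these lists, only the thin limb sums did not overlap between control and KO mice. Control 2, with the most members and the most Slc14a1, had the highest thin limb and urothelial and the lowest proximal tubule sums. The part of slice composition in the lower member and Slc14a1-positive shares was not tested, and with 2 mice a group it cannot be told apart from genotype.

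No gene passed an adjusted p of 0.05 in KO against control members among 6735 tested (0% called, edgeR). Unadjusted p was under 0.05 for 121 higher genes (1.8%) and 160 lower genes (2.38%), and DESeq2 also called none and gave 36 and 45. In simulated data of this design, 14.3% of genes changed 4-fold were recovered, so that changes of this size could be missed. Values of the 5 genes per direction with the smallest unadjusted p follow as a description.

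Ccdc85a, a coiled-coil protein, was at 45.3 and 30.0 CPM in control and 276 and 242 in KO members (log2 difference 2.67 ± 0.56). Xdh, xanthine dehydrogenase, was at 9.05 and 40.0 against 228 and 162 (2.90 ± 0.68), and neither of these genes had a KO value near a control value. Zfp697 (2.41 ± 0.65), Gatm, which makes a creatine precursor (2.11 ± 0.57), and Gm37245 (4.32 ± 1.18) were at 315, 370 and 216 CPM in non-endothelial nuclei, and the part of tubule transcripts in them was not tested. Gm37245 had 15 UMIs in 4 members. The leading 2 members of KO 2 held 20 of its 23 Gatm UMIs. Over the 4 mice, the leading nuclei (2 per mouse) held 21 of 28 Zfp697 UMIs.

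In the other direction, Lama2, a laminin chain of muscle and mesenchyme, had 19 and 8 UMIs in control members and none in KO members, at least 4.75-fold lower (limit of 3 UMIs over both KO mice). These 27 UMIs came from 9 nuclei, and the leading nuclei (2 per mouse) held 19 of them. Pik3r3, a phosphoinositide 3-kinase subunit, had 10 and 8 against none (at least 3.17-fold lower) and was spread over 18 nuclei. Map1b, a microtubule protein, was at 253 and 180 against 32.5 and 40.4 (-2.60 ± 0.63), Nrgn at 299 and 120 against 32.5 and 40.4 (-2.55 ± 0.70, 2 UMIs in each KO mouse) and the ribosomal protein gene Rps10, which has many near-identical copies in the genome, at 398 and 380 against 130 and 80.8 (-1.91 ± 0.48). All of these had an adjusted p of 0.941. Leaving out KO 1 gave 7 calls higher and 2 lower, and leaving out KO 2 gave 2 and 1.

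**Figure D5:**
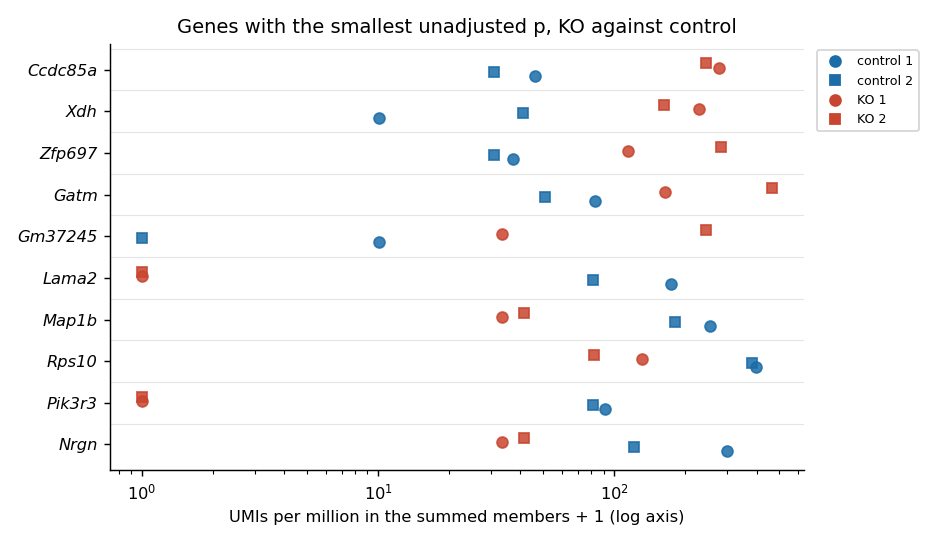
Levels of the 10 genes with the smallest unadjusted p in members of control (blue) and KO (red) mice, in CPM plus 1 on a log axis, 1 point per mouse (circle for mouse 1, square for mouse 2). Points at 1 mark levels of 0, and none of the 10 genes passed the adjusted threshold.

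By list, no gene was called in either direction, and medians are given beside -0.06 over all genes tested. They were -0.60 for tonicity and water genes (2 of 9 above 0), -0.17 for arterial identity (10 of 28), -0.40 for Wnt genes (4 of 10), 0.38 for capillary and venous genes (8 of 13), 0.67 for proximal tubule genes (9 of 9) and -1.29 for the 2 fibroblast genes tested. Jag1 was at 154 and 220 CPM in control and 32.5 and 40.4 in KO members (-2.39 ± 0.65, adjusted p = 0.941, 2 UMIs in each KO mouse). Scin (-1.23 ± 0.47), Lef1 (-1.19 ± 0.49) and Mecom (-1.10 ± 0.46) had lower fitted values in KO members, and Rgcc (1.92 ± 0.62) and Igfbp5 (1.24 ± 0.40) higher ones, each with an adjusted p of 0.941 or 0.992. The Slc14a1-positive share of members moved with these genes in the same mice, and its part was not tested.

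Whether the knockout change differed between members and other endothelial nuclei was tested as an interaction over 13095 genes. It was called for 3 genes (0.0229%), Gramd1b, Cyp7b1 and Keg1, each with a more positive change in members, and for none in the other direction. DESeq2 called none and gave an unadjusted p under 0.05 for 88 and 93 genes. Gramd1b was at 806, 20, 894 and 1354 CPM in members and 406, 527, 234 and 231 in the other endothelial nuclei. Control 2 was the low value in members. The gene was at 1642 CPM in non-endothelial nuclei, and the leading nuclei (2 per mouse) held 196 of its 213 UMIs in members. Leaving out control 2 or KO 1 gave 0 calls, and leaving out control 1 gave 21. With members required to have at least 3 marker UMIs, none of the 3 was called and 4 other genes were, all with a more negative change in members.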

How the data were processed

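Nuclei were isolated from RNAlater-preserved kidney slices and sequenced with the 10x Genomics 3' v3.1 chemistry. Per the labels and the study's methods, the authors aligned reads to mm10 and counted UMIs with Cell Ranger 3.0.2. The deposited values are raw counts of UMIs per gene and barcode for all barcodes. No ambient RNA or doublet removal was applied here. Per library, the 10000 barcodes with most UMIs were taken, and nuclei with more than 500 and fewer than 4000 genes and under 5% mitochondrial UMIs were kept. The members and gene lists were chosen with earlier results of these data known.

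Counts were summed per mouse and part. edgeR 4.0.16 (quasi-likelihood test, TMM, R 4.3.3) was run on genes with at least 10 UMIs over the sums, with the mouse as a term where parts of the same mice were compared, and p-values were adjusted by Benjamini-Hochberg at 0.05. The 13 genes of the rule were left out where parts were compared. Standard errors were taken as the log2 difference over the square root of the F statistic. Where parts were compared, the p-values nearly matched the normal tail of the log2 difference over its SE. These p-values and SEs, the interaction included, therefore do not measure the spread of a single gene among mice. Ratios of scarce genes carry exact 95% counting intervals, and a count of 0 was limited at 3 UMIs. DESeq2 1.42.0 and other settings served as alternatives. Member shares were compared by exact permutation of mice. Replicates were separate mice. On simulated counts the test recovered 30.5% of changed genes between members and other nuclei (50.5% of those changed 4-fold), with 6 false calls among 64, and 8.74% in the Slc14a1 comparison, with 0 false calls among 16. The simulated interaction gave 2 false calls among 8.

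Named genes were, per direction, the 12 with the largest change among called genes with the same direction in all 4 mice (8 for the Slc14a1 comparison), the 5 with the smallest p for the knockout, and up to 8 genes per list with the smallest p. A gene that met this rule is not reported here. Coordinates are those of RefSeq on GRCm38.p6 (mm10), matched by symbol for 15 genes.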

Additional observations from a re-analysis of the deposited data

Results flagged for a closer look

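In 3 genes the knockout change differed between members and other endothelial nuclei by the interaction test. The difference of the log2 changes was 2.56 ± 0.37 for Gramd1b (adjusted p = 3.47e-08 with edgeR), 2.08 ± 0.38 for Cyp7b1 (adjusted p = 0.000407) and 1.66 ± 0.36 for Keg1 (adjusted p = 0.0153). All 3 were abundant in non-endothelial nuclei, at 1642, 1147 and 2562 CPM. Cyp7b1 stood at 507, 60.1, 634 and 950 CPM in members of control 1, control 2, KO 1 and KO 2, and Keg1 at 751, 100.1, 634 and 687. In members of each mouse, the 2 leading nuclei together held 129 of 148 Cyp7b1 UMIs and 101 of 166 Keg1 UMIs over the 4 mice. DESeq2 gave an adjusted p of 1.00 for each, and neither the filter of edgeR nor the sums without control 2 or without KO 1 kept a call. Without nuclei rich in epithelial genes, Gramd1b (3.17) and Cyp7b1 (2.34) were still called and Keg1 (1.32) was not. The part of tubule transcripts and of control 2 in these differences was not tested.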

How the results depend on the processing

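Few nuclei limited these results: members summed to 49499 to 110465 UMIs per mouse, and genes below about 10 UMIs were not tested. KO minus control, the member share of endothelial nuclei was -9.64 to -1.21 points under the 5 alternatives that changed members or nuclei, -0.36 points as a share of all nuclei and -5.42 to -1.37 when 1 mouse was left out, with no exact p under 0.33. For members against other endothelial nuclei, calls were 98 lower with DESeq2, 177 lower without TMM, 155 lower with edgeR's own filter and 76 higher after thinning, and leaving out 1 mouse gave 140 to 223 higher and 173 to 278 lower. Of the named genes, 25 lost their call after thinning and 17 with DESeq2, and Pdgfra was reversed by thinning (-3.65). In the Slc14a1 comparison there were 40 higher and 47 lower with DESeq2, 53 and 82 without a filter, 38 and 46 with at least 3 marker UMIs, and 28 to 56 and 57 to 120 when 1 mouse was left out. For KO against control, no filter gave 1 higher and 2 lower, and leaving out 1 mouse gave 0 to 7 and 0 to 2. Of uncalled genes, Slc34a1 (-0.20) and Slc5a12 (-0.79) reversed without nuclei rich in epithelial genes, Esm1 reversed with at least 3 marker UMIs (-0.84), and Slc5a12 ranged from -0.11 to 7.81 when 1 mouse was left out. The interaction gave 0 calls with DESeq2 or edgeR's filter, 8 without TMM, 6 without nuclei rich in epithelial genes, 4 with at least 3 marker UMIs (0 higher and 4 lower, the opposite direction to the 3 calls reported) and 0 to 21 when 1 mouse was left out. The cause of these shifts was not tested.

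By the labels the mice shared only replicate numbers, and deviations of same-numbered mice correlated at -0.01 over 6735 genes. Their libraries were alike in other measures. Control 1 and KO 1 had 42138345 and 44964099 UMIs per library, and control 2 and KO 2 had 24998797 and 22179410. Median mitochondrial content of members was 1.66% and 1.34% in the first pair and 0.61% and 0.50% in the second. Whether same-numbered mice were processed together is not given. The fit with the replicate number as a block (replicate block) called 0 genes higher and 0 lower in KO members, with 132 and 181 at an unadjusted p under 0.05.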
